A study of Mus musculus with 6 samples.

Results

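The G1 regulators described here are 10 genes of 18444 listed in liver RNA sequencing of mice: the D-type cyclins Ccnd1, Ccnd2 and Ccnd3, the E-type cyclins Ccne1 and Ccne2, the kinases Cdk4 and Cdk6, the kinase inhibitors Cdkn1b and Cdkn2c, and the transcription factor E2f1. They were chosen by gene symbol, and all 10 had reads in all 6 libraries. The libraries came from livers of male C57BL/6 mice (C57BL/6J in the methods), 1 library per condition, in 2 models of 3 libraries. The diet model held SD (labelled as chow control), HFD (high fat diet, labelled NASH) and HFD plus JT003. The CCl4 model held corn oil (the vehicle), CCl4 (carbon tetrachloride, which scars the liver) and CCl4 plus JT003. JT003 is a peptide made to activate the adiponectin receptors AdipoR1 and AdipoR2, and the methods give a daily dose of 0.5 mg per kg.

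The methods give 16 weeks of diet with 4 weeks of JT003, and 6 weeks of CCl4 with 3 weeks of JT003. CCl4 was injected every 3 days as a 20% solution in corn oil at 5 ml per kg, groups held 6 mice, and mice were fasted for 8 h before the end. The labels give an age of 6 to 8 weeks for every library, without saying at which point. The methods also describe HFD followed by 4 weeks without methionine and choline, and the labels name only HFD. Neither says whether a library holds 1 mouse or several. With 1 library per condition no difference below has a replicate check, so each test compares the reads of 2 libraries and not the 2 conditions, and intervals cover counting error only.

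In the resting liver most hepatocytes have left the cell cycle, and injury brings some of them back into G1. D-type cyclins carry growth signals: with CDK4 or CDK6 they phosphorylate the retinoblastoma protein, which frees E2F factors to switch on the genes of S phase, Ccne1 and Ccne2 among them. Cyclin E then activates CDK2. p18, the product of Cdkn2c, blocks CDK4 and CDK6, and p27, the product of Cdkn1b, blocks cyclin E with CDK2.

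The rounded expected counts of a library summed to 19374236 to 20184557, so 1 read stood for a very similar share of each library. The 5 hepatocyte markers checked (Alb, Apoa1, Ttr, Hnf4a and Cps1) were present in every library. Levels of different genes are compared as FPKM, the deposited read count scaled to transcript length and library size. Ratios of a gene between libraries are log2 ratios of counts after TMM scaling over the 3 libraries of a model, with a 95% interval. A gene was called when the adjusted p of an exact binomial test was under 0.001 and its log2 ratio was at least 1 in size.

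**Figure D1:**
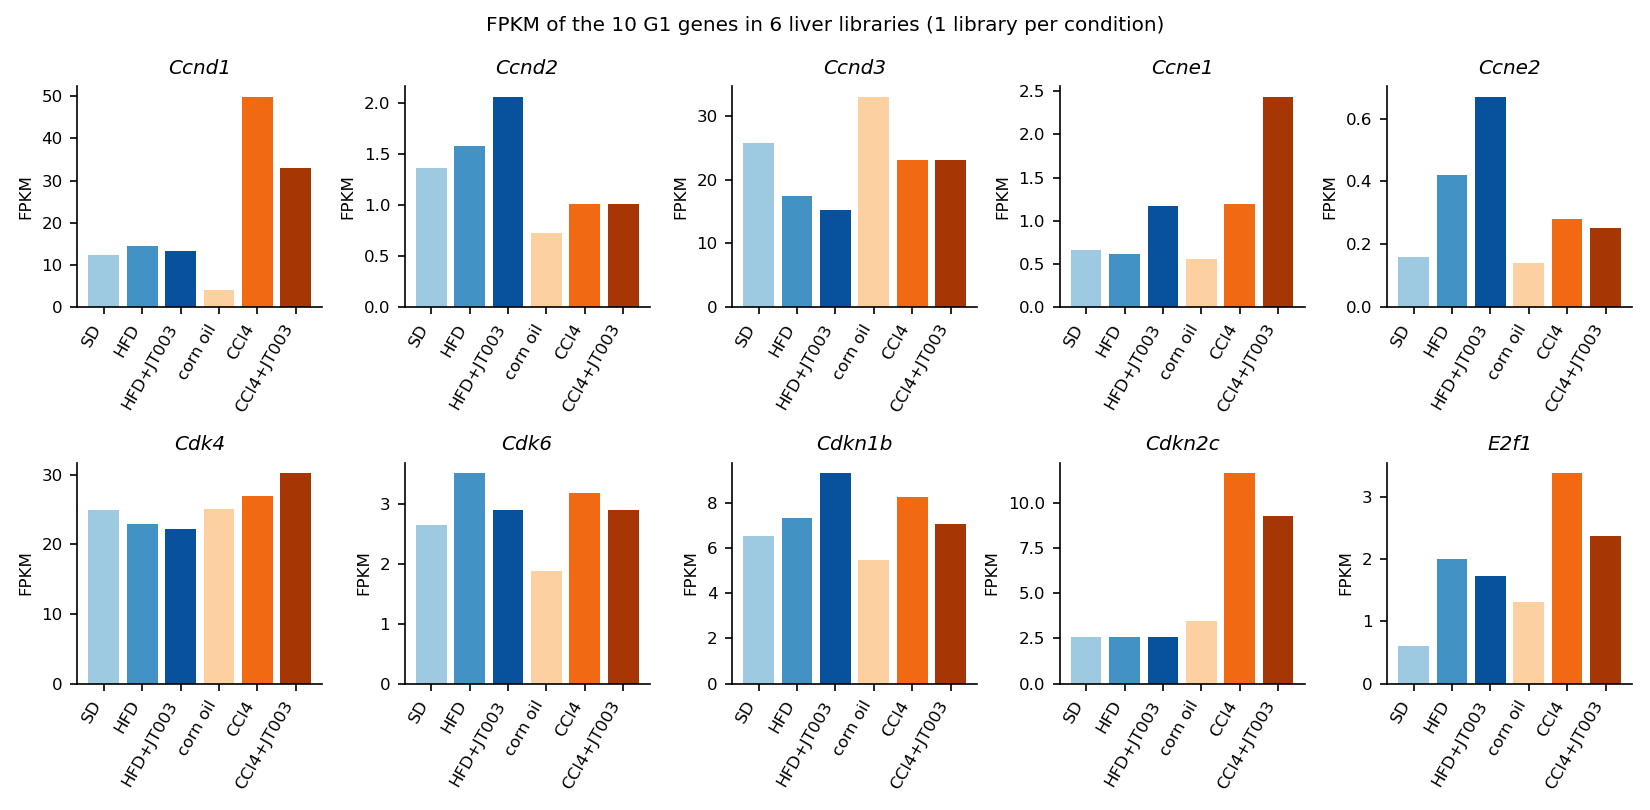
FPKM (vertical axis, from 0, scaled per gene) of each of the 10 genes in the 6 libraries, with the diet model in blue and the CCl4 model in orange; each bar is 1 library and has no error bar. Ccnd1 runs from 4.01 in corn oil to 49.96 in CCl4, while Cdk4 stays between 22.21 and 30.26.

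The member that moved most was Ccnd1 (gene ID 12443), which encodes cyclin D1, the D-type cyclin that regenerating hepatocytes are known to induce. It had 963, 1093 and 1006 counts in SD, HFD and HFD plus JT003, and 300, 3866 and 2448 counts in corn oil, CCl4 and CCl4 plus JT003. All 3 diet libraries lay close together, corn oil was the lowest of the 6, and both CCl4 libraries were above every other. Between corn oil and CCl4 the log2 ratio was 3.39 (3.23 to 3.57), a 10.5-fold rise that was called. Of the 9612 genes with at least 100 counts in 1 of these libraries, 76 had a higher ratio.

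With JT003 in the CCl4 model, Ccnd1 had a log2 ratio of -0.67 (-0.74 to -0.60), which missed the threshold of 1. CCl4 plus JT003 was still 6.6-fold above corn oil, a log2 ratio of 2.72 (2.56 to 2.91) that was called, and only 18 of 9587 genes with at least 100 counts had a higher one. In the diet model HFD over SD gave Ccnd1 a log2 ratio of 0.09 (-0.03 to 0.22) and JT003 gave -0.14 (-0.27 to -0.02), neither of which was called.

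Ccnd3 (12445) encodes cyclin D3. It had 1042, 691 and 608 counts in the diet model and 1288, 929 and 903 counts in the CCl4 model, in the same order of libraries. Both control livers stood above the 4 other libraries. The log2 ratio was -0.68 (-0.82 to -0.54) with HFD against SD, and with CCl4 against corn oil it was -0.76 (-0.88 to -0.64). Both intervals lay below 0 and inside the threshold, so Ccnd3 was not called in either model. JT003 gave log2 ratios of -0.21 (-0.37 to -0.05) with HFD and -0.05 (-0.19 to 0.08) with CCl4.

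Ccnd2 (12444), which encodes cyclin D2, was the scarcest of the D-type cyclins. Its counts were 161, 183 and 239 in the diet model and 82, 119 and 115 in the CCl4 model. It was highest in HFD plus JT003 and lowest in corn oil, and no comparison called it. The JT003 log2 ratio was 0.36 (0.08 to 0.65) in the diet model and -0.06 (-0.44 to 0.32) in the CCl4 model.

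In the order control, HFD or CCl4, and JT003, summed FPKM of the D-type cyclins was 39.59, 33.50 and 30.55 in the diet model. In the CCl4 model it was 37.82, 74.04 and 57.02. The diet libraries thus had less D-type cyclin RNA than their control, and the CCl4 libraries had more. The make-up also differed: Ccnd3 supplied 87.5% of the sum in corn oil and 65.2% in SD, against 31.2% in CCl4. Ccnd1 supplied 10.6% of the corn oil sum, 67.5% of that in CCl4 and 57.7% of that with JT003. In the diet model the Ccnd1 share was 31.4% for SD and 43.0% and 43.2% for the HFD libraries, where the Ccnd3 ratios were below 0 and those of Ccnd1 near 0. Ccnd2 supplied 1.36% to 6.74%.

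**Figure D2:**
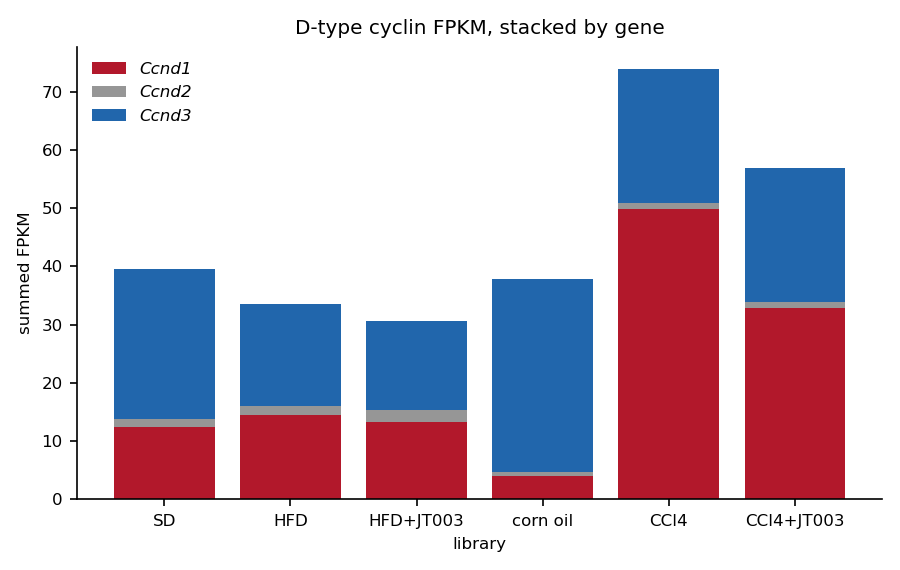
FPKM of Ccnd1, Ccnd2 and Ccnd3 stacked for each of the 6 libraries (vertical axis, summed FPKM from 0; horizontal axis, library). The sum is largest in CCl4, 74.04, where Ccnd1 makes up 67.5% of it, and Ccnd3 makes up 87.5% in corn oil.

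Of the E-type cyclins, Ccne1 (12447) had the higher JT003 library in both models. Its counts were 27, 25 and 47 in SD, HFD and HFD plus JT003, and 22, 49 and 96 in corn oil, CCl4 and CCl4 plus JT003. Each JT003 library was the highest of its model, and the 2 models differed in the step before it, since SD and HFD were alike. CCl4 plus JT003 over CCl4 gave a log2 ratio of 0.93 (0.45 to 1.49), which had an adjusted p of 0.000611 by the exact binomial test and missed only the threshold on size. HFD plus JT003 over HFD gave 0.84 (0.16 to 1.65), with an adjusted p of 0.0588 by the same exact test. CCl4 over corn oil gave 0.82 (0.11 to 1.66), and CCl4 plus JT003 over corn oil gave 1.75 (1.15 to 2.57), which was called.

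Ccne2 (12448), the other cyclin E gene, had the fewest reads of the members: 10, 25 and 41 counts in the diet model and 8, 17 and 15 in the CCl4 model. In the diet model both HFD libraries were above SD, and HFD plus JT003 was the highest of the 6. HFD plus JT003 over SD had a log2 ratio of 1.74 (0.90 to 3.08), which was called, while HFD over SD had 1.09 (0.12 to 2.45), with an adjusted p of 0.0738 in the exact test, and was not. At this depth the interval for CCl4 over corn oil, -0.49 to 2.22 around 0.68, reached to both sides of 0.

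Summed FPKM of the E-type cyclins was 0.82, 1.04 and 1.84 in the diet model and 0.70, 1.48 and 2.69 in the CCl4 model. The D-type sum divided by the E-type sum was therefore 48.3, 32.2 and 16.6 in the diet model, and 54, 50 and 21.2 in the CCl4 model. Both JT003 libraries had the lowest D-to-E ratio of their model. Markers of blood and immune cells also differed between these libraries. Summed FPKM of 4 lymphocyte markers (Cd3e, Cd3g, Cd79a and Ms4a1) was 1.18, 1.01 and 1.96 in the diet model and 1.49, 1.34 and 2.22 in the CCl4 model, and Cd3e was at 0 in CCl4. That of 5 macrophage markers (Adgre1, Clec4f, Cd68, Csf1r and Vsig4), all detected in every library, was 68.2, 72.7 and 104 and then 17.6, 38.6 and 49.2. Both sums were highest in the JT003 library of each model, as Ccne1 was. So was that of 5 endothelial markers (54.2, 58.6 and 70.6, then 35.1, 23 and 35.6). The sum of 5 neutrophil markers was too (6.68, 11.7 and 13.3, then 7.4, 12.2 and 16.9). Single markers often went another way than these sums. For HFD plus JT003 over HFD, 4 of 5 neutrophil log2 ratios were below 0 (median -0.16). S100a9 had 1.88 against 2.87 FPKM there, while Ly6g had 8.40 against 5.54. In that comparison 2 of 5 endothelial log2 ratios were below 0 (median 0.07), and Lyve1 had 4.63 against 6.37 FPKM. For CCl4 plus JT003 over corn oil, 4 of 5 endothelial log2 ratios were below 0 (median -0.35). The macrophage markers did not all follow their sum in the CCl4 model. JT003 gave Adgre1 2.38 against 2.89 FPKM and Cd68 8.98 against 11.69 there, and the other 3 were higher. The part of these cells in the result was not tested. In whole liver, fewer cells of a type and less RNA per cell cannot be told apart.

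Cdk4 (12567), the main partner of D-type cyclins in liver, varied least of the 10. It had 683, 614 and 598 counts in the diet model and 661, 737 and 796 counts in the CCl4 model. On the FPKM scale its highest library was 1.36-fold above its lowest, against 12.5-fold for Ccnd1. Log2 ratios ran from -0.24 (-0.40 to -0.09) with HFD to 0.10 (-0.05 to 0.25) for CCl4 plus JT003 over CCl4 in the comparisons of a model with its control and of JT003 with the untreated model. For CCl4 over corn oil it was -0.13 (-0.28 to 0.02), and the sign depends on the scaling, since total reads gave 0.10.

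The stretch before the Cdk4 start site is shown because it is rich in one short motif. Of the 10 genes, 7 had windows in the RefSeq table of start sites (250 bases before to 50 after, build GRCm38.p6), 9 windows in all. CACGTG, the E-box, which reads the same on both strands, occurred 4 times in the Cdk4 window, which 8 of 32851 windows (0.0244%) matched or exceeded. At least 1 E-box was in 2349 windows (7.15%), and among the members also in the Cdk6 window and a Cdkn2c window. TTTNNCGC, a form of the E2F motif searched on both strands, was in 5.17% of all windows and, among the members, only in that of Cdk6. The E2f1 window and 1 Cdkn2c window lay wholly inside annotated exons, and Ccnd1, Ccnd2 and Ccne2 had no window. The 249 bases of the Cdk4 window outside annotated exons, chr10:127063285-127063533 on the plus strand, follow 5′ to 3′ with the 4 E-boxes in capitals, none of which overlaps the other motif.
Cdk4: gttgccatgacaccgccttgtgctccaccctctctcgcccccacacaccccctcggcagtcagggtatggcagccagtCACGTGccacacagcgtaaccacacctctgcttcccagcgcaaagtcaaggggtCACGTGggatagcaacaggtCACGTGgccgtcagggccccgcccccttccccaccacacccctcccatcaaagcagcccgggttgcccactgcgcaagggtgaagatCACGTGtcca

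A match is a run of letters and does not show that a factor binds there. The submitters' processing notes name another build, mm9, so no coordinate of the deposited files is given.

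Cdk6 (12571) encodes the second kinase of D-type cyclins. Its counts were 627, 816 and 677 in the diet model and 432, 756 and 662 in the CCl4 model. By counts, the HFD or CCl4 library was the highest in both models and the JT003 library lay between it and the control. After TMM scaling HFD plus JT003 was level with SD, at a log2 ratio of 0.00 (-0.16 to 0.16). The log2 ratios were 0.29 (0.14 to 0.44) for HFD and -0.29 (-0.44 to -0.14) for JT003 with HFD, and 0.52 (0.35 to 0.69) for CCl4 and -0.20 (-0.35 to -0.05) for JT003 with CCl4. All 4 were short of the threshold. Per length Cdk4 outweighed Cdk6 everywhere, with 86.7% to 93.0% of their summed FPKM, and the Cdk4-to-Cdk6 ratio was highest in corn oil (13.2) and lowest in HFD (6.51).

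Cdkn2c (12580) encodes p18, an inhibitor of CDK4 and CDK6, and was the second member to move with CCl4. It had 70, 69 and 79 counts in the diet model and 80, 358 and 219 counts in the CCl4 model. The 3 diet libraries and corn oil were alike, and both CCl4 libraries were well above them. The log2 ratio was 1.85 (1.52 to 2.24) for CCl4 over corn oil, a 3.61-fold rise that was called, and 1.14 (0.78 to 1.54) for CCl4 plus JT003 over corn oil, also called. JT003 over CCl4 gave -0.71 (-0.97 to -0.47), which was not called.

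The deposited transcript length of Cdkn2c was not constant; RSEM averages it over the transcripts it assigns reads to. It was 1344, 1365 and 1543 bases in the diet model and 1189, 1526 and 1228 bases in the CCl4 model. Cdkn2c FPKM was 3.49, 11.68 and 9.28 in corn oil, CCl4 and CCl4 plus JT003, so on that scale the CCl4 and JT003 libraries lay closer than by counts. RefSeq places 2 start sites at Cdkn2c, and the stretch before the inner one is shown as the start of a second transcript; how the reads divide between them was not measured here. It is chr4:109665373-109665609 (GRCm38.p6, minus strand), 237 bases outside annotated exons, and holds neither motif.
Cdkn2c: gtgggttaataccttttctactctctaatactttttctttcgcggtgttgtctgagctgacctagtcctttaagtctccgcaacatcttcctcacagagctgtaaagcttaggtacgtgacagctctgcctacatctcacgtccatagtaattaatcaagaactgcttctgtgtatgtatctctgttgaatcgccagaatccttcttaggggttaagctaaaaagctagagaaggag

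Markers of bile duct cells were high in the same libraries as Ccnd1 and Cdkn2c. Summed FPKM of 5 cholangiocyte markers (Krt19, Krt7, Epcam, Sox9 and Cftr) was 2.27, 2.33 and 3.62 in the diet model, with Cftr at 0 in all 3, and 5.66, 14 and 10.7 in the CCl4 model. In the CCl4 model the order of this sum is that of Ccnd1 and Cdkn2c. Epcam went another way, with 0.82, 2.62 and 3.02 FPKM, and Cftr was at 0.06 in both CCl4 libraries. Sums of hepatocyte markers and of stellate cell markers (8.91, 11.3 and 10.5) had that order too, but many single markers did not. For CCl4 over corn oil 3 of 5 hepatocyte log2 ratios were below 0 (median -0.34), and 2 of 5 stellate ones were (median 0.44). Acta2 had 3.27, 2.07 and 0.90 FPKM, and Lrat and Reln were highest with JT003 (2.45 and 3.03). The corn oil sum of cholangiocyte markers was above that of every diet library, although Ccnd1 was lowest in corn oil. The part of these cells in both results was not tested. 

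Cdkn1b (12576) encodes p27, which binds cyclin E with CDK2. It had 318, 349 and 447 counts in the diet model and 258, 401 and 330 counts in the CCl4 model. JT003 went with the highest library of the diet model and with the middle one of the CCl4 model. Its log2 ratio was 0.33 (0.13 to 0.54) with HFD and -0.29 (-0.51 to -0.08) with CCl4, neither of which was called. CCl4 over corn oil gave 0.35 (0.12 to 0.58) and HFD over SD gave 0.04 (-0.18 to 0.27). The FPKM of Ccnd1 divided by that of Cdkn1b was 1.91, 1.97 and 1.42 in the diet model and 0.732, 6.07 and 4.67 in the CCl4 model.

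E2f1 (13555), the activating E2F factor that opens S phase, was the only member called in both models against the control. It had 33, 107 and 93 counts in the diet model and 70, 185 and 125 counts in the CCl4 model. In each model the control was lowest, the HFD or CCl4 library highest and JT003 between them. HFD over SD gave a log2 ratio of 1.55 (1.03 to 2.22), a 2.93-fold rise, and CCl4 over corn oil gave 1.09 (0.71 to 1.53), a 2.13-fold rise. The latter call was lost when the CCl4 counts taken as pooled, described below, replaced the library, with a ratio of 0.85. JT003 gave -0.22 (-0.64 to 0.19) with HFD, which left HFD plus JT003 above SD at 1.33, with a lower bound of 0.79, which was called, and -0.57 (-0.92 to -0.24) with CCl4.

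**Figure D3:**
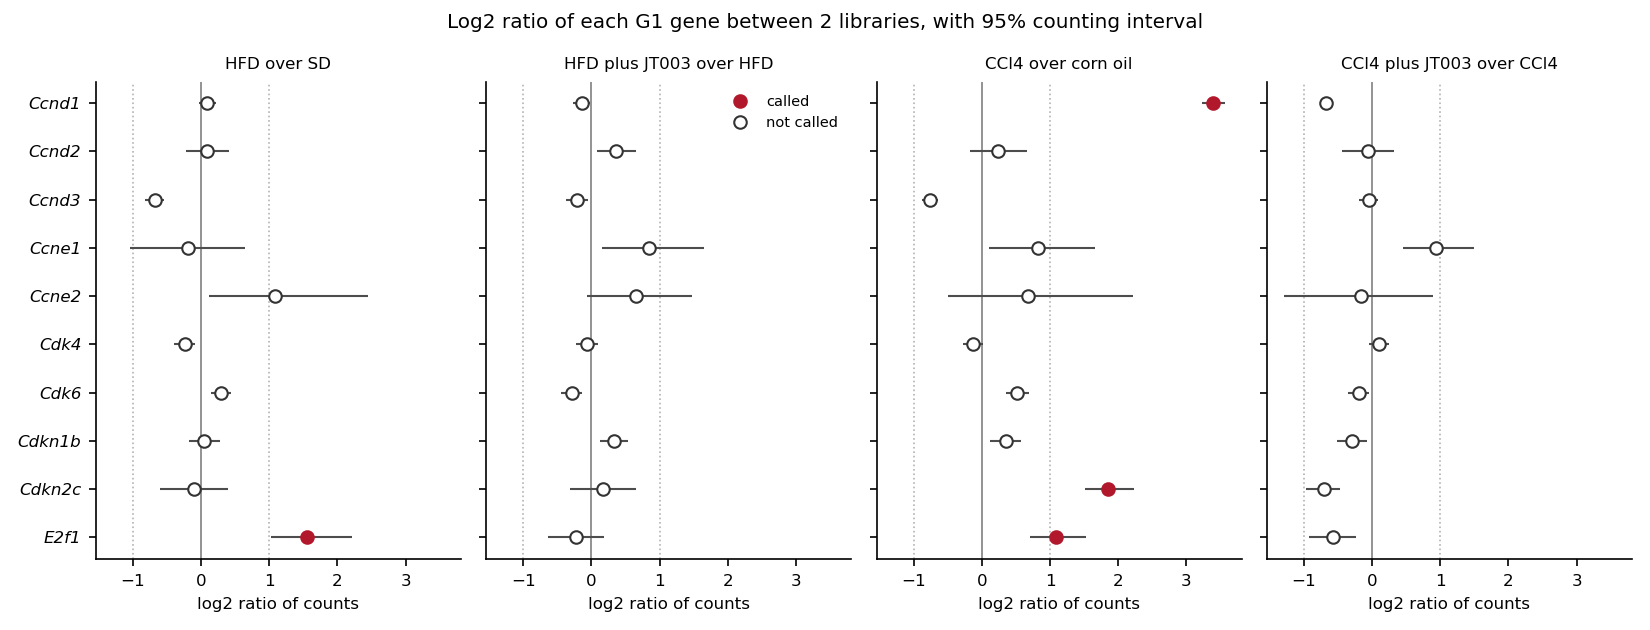
Log2 ratio of counts (horizontal axis) of each of the 10 genes in 4 comparisons of 2 libraries; lines are 95% counting intervals, filled circles are called, and dotted lines mark log2 ratios of -1 and 1. E2f1 is called for HFD over SD (1.55), Ccnd1 (3.39), Cdkn2c (1.85) and E2f1 (1.09) for CCl4 over corn oil, and none is called for JT003.

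Counted over the 10 genes, HFD over SD called 1 (E2f1, higher), against 5.38% of all 16973 genes tested. By the exact binomial test JT003 called 0 of 10 with HFD, where 1.63% of all genes were called, and edgeR's exact test called 0 as well. Unadjusted intervals lay outside 0 for 6 of the 10, where 32.5% of all genes had an unadjusted p under 0.05 in the exact binomial test. They were above 0 for Ccnd2, Ccne1 and Cdkn1b and below 0 for Ccnd1, Ccnd3 and Cdk6. CCl4 over corn oil called 3 of 10 (Ccnd1, Cdkn2c and E2f1, all higher) against 7.18% of all genes. With CCl4, JT003 called 0 of 10 by either test against 4.42% by the binomial test. There 6 of 10 unadjusted intervals lay outside 0, where 42.2% of all genes had an unadjusted p under 0.05 in that exact test, above 0 for Ccne1 and below it for Ccnd1, Cdk6, Cdkn1b, Cdkn2c and E2f1. HFD plus JT003 over SD called 2 of 10 (Ccne2 and E2f1, higher) against 5.93%, and CCl4 plus JT003 over corn oil called 3 of 10 (Ccnd1, Ccne1 and Cdkn2c, higher) against 4.95%. No member was called lower in these 6 comparisons, which share libraries within a model.

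Over the 10 genes, HFD had a median log2 ratio of 0.07 against SD and CCl4 one of 0.60 against corn oil, where that of all genes tested was 0.00 in both. For JT003 it was 0.05 with HFD and -0.19 with CCl4, where that of all genes was -0.01 and 0.00. The median size of the log2 ratio, regardless of sign, was 0.22 for HFD and 0.72 for CCl4, against 0.36 and 0.40 for all genes.

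The CCl4 comparison has a second source, since a comparison table deposited by the authors has a CCl4 column that sums to 2.97 times the reads of the CCl4 library. It is taken as pooled over libraries from its values alone, since it was below the library in only 24 genes, by at most 0.99 reads. Its counts less those of the library (39780549 in all) are called the remainder here; the table does not name the libraries behind it. Over corn oil, the remainder gave Ccnd1 a log2 ratio of 3.21 (3.05 to 3.39) and Cdkn2c 1.42 (1.09 to 1.79), both called. It also called Ccnd3 lower at -1.05 (-1.16 to -0.95), Ccne1 higher at 1.11 (0.49 to 1.88) and Ccne2 higher at 1.62 (0.69 to 3.02), while E2f1 was at 0.70 (0.32 to 1.10). The remainder thus called 5 of 10, against 9.75% of all genes. Over corn oil the remainder also called higher 4 of 5 erythroid markers (median log2 ratio 1.47), 4 of 5 macrophage markers (2.05) and 3 of 5 neutrophil markers (1.92). The CCl4 library over corn oil had an erythroid median of -0.50, with 1 marker called lower, and the part of these cells in the 5 calls was not tested.

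CCl4 plus JT003 over the remainder called 0 of 10 by the binomial test against 4.64%. Unadjusted intervals lay outside 0 for 9 of 10, where 45% of all genes had an unadjusted p under 0.05 in the exact test. The log2 ratios were -0.49 (-0.56 to -0.43) for Ccnd1, -0.28 (-0.51 to -0.05) for Cdkn2c and 0.66 (0.27 to 1.07) for Ccne1. Ccne2 had the ratio furthest from 0, -1.09 (-2.06 to -0.33), where the CCl4 library gave -0.17. In this comparison 4 of 5 erythroid markers were called lower (median -2.90). So were 2 of 5 neutrophil markers (-1.21) and 2 of 5 macrophage markers (-0.48), and the part of these cells was not tested.

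The other CDK inhibitors did not move together. Cdkn1a, which encodes p21, the inhibitor that p53 induces, had 828, 295 and 94 counts in the diet model and 1050, 3208 and 783 counts in the CCl4 model. It fell by 1.57 on the log2 scale with HFD and by a further 1.65 with JT003, rose by 1.32 with CCl4 and fell by 2.04 with JT003, and all 4 were called. Cdkn1a was therefore below its control in HFD and above it in CCl4, and lowest of its model with JT003 in both. Cdkn2d, which encodes the CDK4 and CDK6 inhibitor p19, had 29, 52 and 37 and then 34, 99 and 66 counts, and was called higher only for CCl4 over corn oil, at 1.21 (0.68 to 1.86), a call that was lost with the pooled counts (0.99) and with the remainder (0.85). Cdkn1c (p57) had 20 to 56 counts in the 6 libraries, and Cdkn2a and Cdkn2b had 1 to 7.

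Of 12 RB family, other E2F and DP genes, 2 were called higher for CCl4 over corn oil and the same 2 lower for JT003 over CCl4. They were Rbl1, which encodes the RB relative p107 (1.71 and then -1.16), and E2f2, another activating E2F (19, 60 and 20 counts, 1.29 for CCl4). Neither was called for HFD over SD, where none of the 12 was. The MuvB core is part of DREAM, a complex that represses cell cycle genes in resting cells. Among 5 genes of this core, Lin9 was called higher for CCl4 over corn oil (1.63, from 16 to 65 counts). Of 6 genes for the ubiquitin ligases that degrade p27 and cyclin E, Cks1b was called there too (1.12, from 49 to 133 counts). None of 10 upstream growth signals (Myc, Hgf, Met, Egf, Egfr, Areg, Hbegf, Tgfa, Yap1 and Ctnnb1) was called in any of the 6 comparisons; Areg had no reads in SD and HFD plus JT003, so 9 were tested between those. Hgf, which encodes hepatocyte growth factor, was called higher over corn oil with the remainder, at 1.63 (1.02 to 2.41), and with the pooled counts, at 1.43.

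Downstream, 15 genes of the G1/S transition that E2F factors bind had median log2 ratios of 0.43 with HFD and 1.14 with CCl4, each against its control (1.13 with Cdc6, which had no reads in corn oil, at its bound). For HFD over SD 1 was called higher, Tk1, which encodes thymidine kinase (72 to 184 counts, 1.24). For CCl4 over corn oil 8 were called higher, led by Uhrf1 (2.53), Rrm2 (2.38) and Mcm5 (2.34), and none lower. JT003 called 2 of them higher with HFD, Tk1 (1.37) and Rrm2 (1.20), and 3 lower with CCl4, Rrm2 (-2.82), Mcm5 (-1.60) and Rrm1 (-1.22). The JT003 medians were 0.42 with HFD and -0.47 with CCl4. Whether the 2 models differ in this was not tested.

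The genes of G2 and mitosis had larger ratios than most members in the CCl4 model, a difference that was not tested. All 11 G2/M genes were called higher for CCl4 over corn oil, with a median log2 ratio of 4.90 when Bub1, which had no reads in corn oil, is set at its bound from a floor of 3 counts per library. All 11 were called lower with JT003, with a median of -3.43. Cyclin A2 (Ccna2), which follows cyclin E, had 17, 563 and 67 counts in the CCl4 model, log2 ratios of 4.62 and then -3.04. The lowest ratio of the 11 for CCl4 over corn oil was 2.86, below that of Ccnd1 (3.39). With JT003, Ccnd1 kept 2448 of 3866 counts and Ccne1 had more reads with JT003 than without. For HFD over SD none of the 11 was called, at only 1 to 55 counts per gene in those libraries. There 9 of the 11 log2 ratios were above 0, with a median of 0.73.

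**Figure D4:**
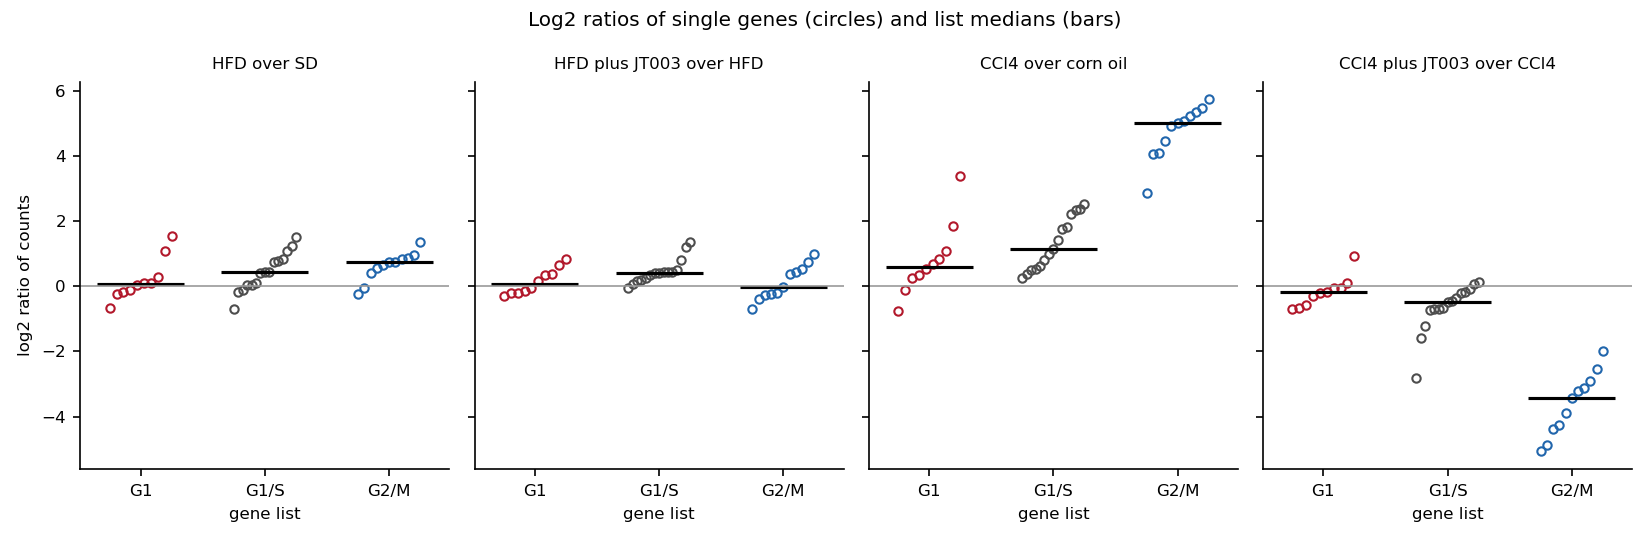
Log2 ratio of counts (vertical axis) of the 10 G1 genes, the 15 G1/S genes and the 11 G2/M genes in 4 comparisons of 2 libraries; each circle is 1 gene and each bar the median of the list. For CCl4 plus JT003 over CCl4 the medians are -0.19, -0.47 and -3.43.

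The pattern over the 6 libraries most like that of Ccnd1 among the members was that of Cdkn2c (Pearson r = 0.77 of log2 counts scaled to library size), and most like E2f1 was Cdkn2c (0.69). Ccnd3 was most like Cdk4 (0.89), and Ccne2 most like Cdkn1b (0.83). Over all genes with a mean of at least 100 counts, Ccnd1 was most like Scd2 (0.999), Lgals3 (0.985) and Nfe2l2 (0.980). Cdkn2c was most like Gss (0.997), Bst2 (0.993) and Cdk1 (0.991), the mitotic kinase. These values describe 6 points that share a few large differences, and no p is given.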

How the data were processed

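Liver RNA of 6 mouse groups was sequenced on a BGISEQ-500, 1 library each. Per the labels, the submitters' processing notes name HISAT, Bowtie2, RSEM and the build mm9, with no versions. The authors deposited for each library and gene an expected count, an estimate of its reads without normalization, an FPKM, which is that count scaled to transcript length and library reads, and a transcript length. A deposited comparison table also holds a CCl4 column of expected counts that appears to be pooled over libraries, which is inferred from its sum of 2.97 times the CCl4 library; 7 other expression columns and the authors' fold changes and p-values were not used.

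Expected counts were rounded. TMM factors (edgeR 4.0.16, R 4.3.3) were taken over the 3 libraries of a model. Genes with at least 1 read were compared by an exact binomial test conditional on their summed reads (two-sided, in scipy 1.17.1). P-values were adjusted by Benjamini-Hochberg over all of them, ratios had 95% Clopper-Pearson intervals, and log2 ratios used a prior count of 2. The steps were tested on simulated data. Alternatives included DESeq2 1.42.0 size factors. All members were named, and in each list up to 3 called genes of largest size. Members and lists were chosen with earlier results of these data known. A few genes of these lists are not reported here. Depth limits Ccne1 and Ccne2 most.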

Additional observations from a re-analysis of the deposited data

Results flagged for a closer look

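Cdkn1b, which encodes the inhibitor p27, had opposite signs with JT003 in the 2 models. Its log2 ratio was 0.33 for HFD plus JT003 over HFD and -0.29 for CCl4 plus JT003 over CCl4, from 349 to 447 counts and from 401 to 330 counts. It was noticed because the single library of each model went the opposite way with JT003, with both counting intervals outside 0. The difference between the models was not tested, and neither ratio was called.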

How the results depend on the processing

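Of 744 log2 ratios recomputed under alternatives, 693 kept their sign and side of the threshold. Without a threshold on the log2 ratio the members called were 3 for HFD over SD, 1 for HFD plus JT003 over HFD, 4 for HFD plus JT003 over SD, 5 for CCl4 over corn oil, 3 for CCl4 plus JT003 over CCl4 and 4 for CCl4 plus JT003 over corn oil, where 23.4%, 14.2%, 26.7%, 26.1%, 24% and 20.5% of all genes were called that way. edgeR's exact test with an assumed BCV (biological coefficient of variation) of 0.2 called 0 for HFD over SD, 0 for HFD plus JT003 over SD, 1 (Ccnd1) for CCl4 over corn oil and 1 (Ccnd1) for CCl4 plus JT003 over corn oil, and a BCV of 0.4 called 0 in all 4. Log2 FPKM plus 1, without a test, called 0 for HFD and 0 for HFD plus JT003 against SD, and a minimum of 100 counts left 0 for the latter, since neither gene reaches it. The remainder of the pooled CCl4 counts, which was added after seeing the data, called 5 for CCl4 over corn oil. The causes of the other changes were not tested. E2f1 for CCl4 over corn oil was not called with the pooled counts (0.85) or the remainder (0.70). Total reads moved the median of all genes by 0.12, 0.13, 0.23 and 0.32 for HFD, HFD plus JT003, CCl4 and CCl4 plus JT003 over their controls. Signs turned only in small ratios that were not called. With total reads these were Cdkn2c for HFD over SD (0.01), Ccnd1 for HFD plus JT003 over SD (0.09), Cdk4 for CCl4 (0.10) and CCl4 plus JT003 over corn oil (0.27), and Ccnd2 (0.01) and Ccnd3 (0.02) for CCl4 plus JT003 over CCl4. With log2 FPKM plus 1 or plus 0.1 they were Ccnd1 for HFD plus JT003 over SD (0.08 and 0.09) and Cdk4 for CCl4 (0.10 and 0.11) and CCl4 plus JT003 (0.26 and 0.27) over corn oil, and with plus 0.1 Cdkn2c for HFD plus JT003 over SD (-0.01). Ccnd3 for CCl4 plus JT003 turned to 0.13 against the pooled counts and 0.24 against the remainder. Leaving out a replicate cannot be done with 1 library per condition. No paired analysis was possible because each condition has 1 library.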
